A study of Mus musculus with 94 samples.

Results

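The genes described here are 10 transcription factors known for their part in endothelial cells, *Sox7*, *Sox17*, *Sox18*, *Erg*, *Fli1*, *Ets1*, *Ets2*, *Tal1*, *Mef2c* and *Epas1*. They were chosen by name, without a threshold on their values, but with earlier results of these data known. All 10 had a row among the 16069 genes of the table, and 8 of them were above 0 in at least 3 of the 85 cells. The cells were PV-ADSCs, freshly sorted from the peri-aorta adipose tissue of mice of the strain labelled c57/bl at an age of 8 weeks, with no treatment and no culture. They were gated as negative for CD144 and CD45 and positive for CD29 and Sca1. CD144 is VE-cadherin, the adhesion protein of endothelial junctions encoded by *Cdh5*, so the gate was set against endothelial cells. Of the 94 cells the series describes, 85 were in the table, and as no animal is named for any of them they count as 1 sample. Differences between cells are therefore given with no test. The cells were divided by *Dcn*, the matrix proteoglycan decorin, into 58 stromal cells with a deposited value of at least 1000 and 27 other cells.

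The factors belong to several families of DNA-binding proteins. Sox7, Sox17 and Sox18 form the SOXF group, which binds DNA through an HMG box and acts with partial redundancy in vessel formation and in the specification of arteries and lymphatics. Erg, Fli1, Ets1 and Ets2 are ETS factors, which recognise a GGAA core, and Erg and Fli1 are closely related factors that maintain endothelial identity. Tal1 is a basic helix-loop-helix factor of blood and endothelial development, Mef2c is a MADS-box factor of muscle and vessels, and Epas1 encodes HIF-2α, the hypoxia-inducible factor first described in endothelium, whose amount is controlled mainly through the stability of the protein.

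Promoter windows, each running from 250 bases before to 50 after an annotated start, were held by the RefSeq table for *Erg*, *Ets2*, *Tal1* and *Mef2c*. Those of *Sox7*, *Sox17*, *Sox18*, *Fli1*, *Ets1* and *Epas1* were not used here. The first windows of *Mef2c*, *Erg* and *Ets2* are shown because that of *Mef2c* holds more ETS cores than the others, and because *Erg* and *Ets2* lie next to each other on chromosome 16 with 0 protein-coding genes between them. They lie at chr13:83503784-83504083 on the plus strand, chr16:95586544-95586843 on the minus strand and chr16:95702157-95702456 on the plus strand of GRCm38.p6. Capitals mark GGAA, or TTCC where the core is on the opposite strand.
Mef2c: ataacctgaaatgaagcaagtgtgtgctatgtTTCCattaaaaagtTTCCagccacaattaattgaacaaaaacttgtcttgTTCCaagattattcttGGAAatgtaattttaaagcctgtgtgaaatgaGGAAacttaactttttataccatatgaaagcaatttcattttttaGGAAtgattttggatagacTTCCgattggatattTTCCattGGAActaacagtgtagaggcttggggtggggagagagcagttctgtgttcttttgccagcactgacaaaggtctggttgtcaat
Erg: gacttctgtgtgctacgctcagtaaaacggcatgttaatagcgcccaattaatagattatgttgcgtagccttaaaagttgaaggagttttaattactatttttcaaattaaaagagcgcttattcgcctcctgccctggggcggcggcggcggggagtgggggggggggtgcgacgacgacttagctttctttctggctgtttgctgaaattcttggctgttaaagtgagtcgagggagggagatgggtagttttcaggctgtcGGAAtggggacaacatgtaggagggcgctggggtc
Ets2: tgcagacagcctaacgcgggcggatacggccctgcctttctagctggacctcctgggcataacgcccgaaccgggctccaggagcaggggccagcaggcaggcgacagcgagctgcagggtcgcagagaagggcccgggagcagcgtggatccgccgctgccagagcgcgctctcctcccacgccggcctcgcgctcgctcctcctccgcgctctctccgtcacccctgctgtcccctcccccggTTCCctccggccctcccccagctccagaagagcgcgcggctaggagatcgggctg

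The *Mef2c* window held 9 cores, a number reached by 1.59% of the 32851 mouse windows of the same length. The *Erg* and *Ets2* windows held 1 core each, and 96.0% of windows held at least 1. The other windows of the factors held between 2 and 4 cores, beside a median of 3 over all windows. The longer ETS sequence CCGGAA, searched on both strands and containing the core, was in 0 of the 9 windows of these genes and in 14.9% of all windows. These are matches of letters, and no measurement here bears on binding.

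Because the deposited values had been multiplied by factors that differ between groups of genes and between cells, whole reads were recovered by dividing each value by its factor, and levels below are recovered reads unless stated otherwise. The recovered reads summed to between 1146945 and 4776510 per cell, with a median of 2714449 in the other cells and 2963854 in the stromal cells. The other cells held fewer genes above 0, with a median of 1416 (range, 285 to 2278), than the stromal cells, with a median of 2813 (range, 850 to 4148). Of 12 endothelial markers, at least 3 reached 100 reads in 23 of the 27 other cells and in 1 of the 58 stromal cells. The remaining 4 other cells lack the markers that would let them be called endothelial-like. *Cdh5* itself was above 0 in 23 other cells and at 100 reads or more in 20 of them, although its protein was gated out. The markers of blood cells, of which 4 of 12 had a row, were at 0 in all other cells. At least 1 mural marker (5 of 8 had a row) reached 100 reads in 3 other cells and 4 stromal cells. For lymphatic markers (2 of 4 had a row) these numbers were 2, all through *Flt4*, and 16, all through *Pdpn*. For adipocyte markers (2 of 6) they were 11 and 41. *Lpl* alone reached that level in 11 and 41 cells, and *Adipoq* in 0 and 1. The sum of the 7 stromal markers besides *Dcn*, which set the classes, ranged from 0 to 22.8 RPM (recovered reads scaled to the same total in each cell) in the other cells and from 5.23 to 81637 in the stromal cells. The *Dcn* values that bound the classes were 269 in the highest other cell and 6521 in the lowest stromal cell, cell 50. That stromal cell held 69 recovered reads of *Dcn*, 0 stromal markers at 100 reads and the fewest recovered reads of any cell, so that its class and its scaling are uncertain.

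All 10 factors were found in a higher share of the other cells than of the stromal cells. A difference of at least 20 percentage points in the share of cells above 0 was used as the call. It was met by *Sox18*, *Fli1*, *Ets1*, *Mef2c* and *Epas1*, that is 5 of the 10, always with the other cells higher, whereas 1.11% of the 11478 genes tested, those above 0 in at least 3 cells, were called that way. In the opposite direction 0 of the 10 were called, compared with 25.4% of those genes. For *Sox7*, *Sox17*, *Erg* and *Tal1*, above 0 in 4, 9, 2 and 1 of the 85 cells, a call in that direction was out of reach. The median difference was 21 points over the 10 factors and -9.32 points over all genes tested, most of which were found more often in the stromal cells. *Sox7*, *Erg* and *Tal1* were also too rare to reach 20 points with the other cells higher. At a threshold of 100 reads *Sox17* was called as well, which made 6 of the 10, beside 0.976% of all genes with the other cells higher and 15.7% with the stromal cells higher. With every cell thinned to 1146945 reads the same 5 factors were called. The genes found per cell moved in the opposite direction to these shares, and the endothelial markers moved with them. Their part in the differences was not tested.

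**Figure D1:**
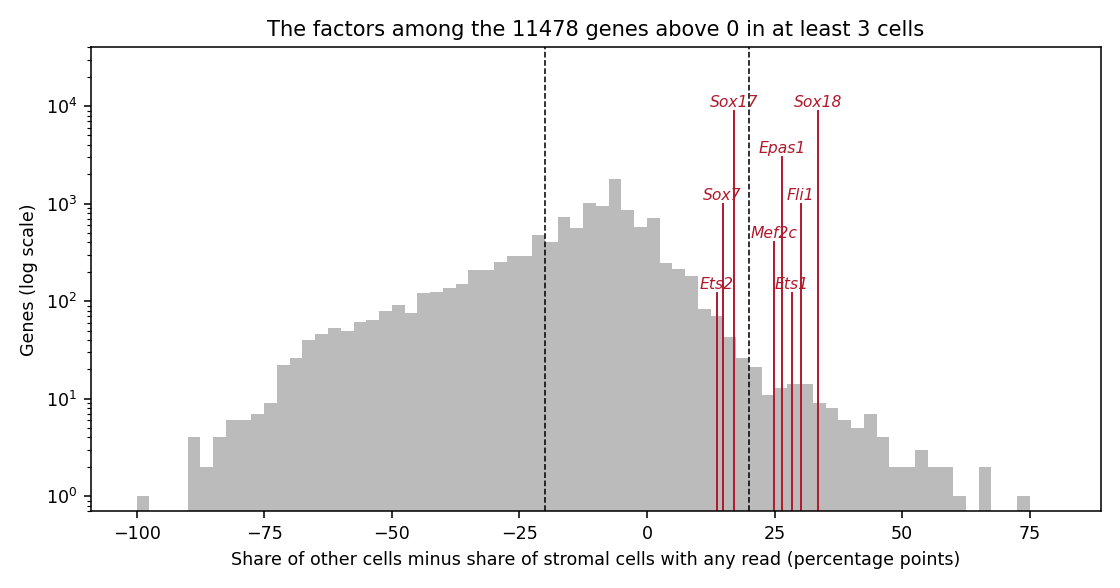
Number of genes (log axis) by the share of other cells minus the share of stromal cells with any read, in percentage points, for the 11478 genes above 0 in at least 3 cells (grey bars), with the 8 factors among them as red lines and the limits of 20 points dashed. The factors lie at 13.7 to 33.6 points, at the right of the distribution, and 5 of them lie beyond the right-hand limit.

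Small numbers of reads made up much of what was found of these genes in the stromal cells. Over the 10 factors, 142 values were above 0, of which 82 were in the other cells and 60 in the stromal cells. In the other cells 72% of the values reached 100 reads and 15.9% lay between 1 and 9 reads. In the stromal cells the corresponding shares were 38.3% and 55%. Both thresholds are therefore used below.

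**Figure D2:**
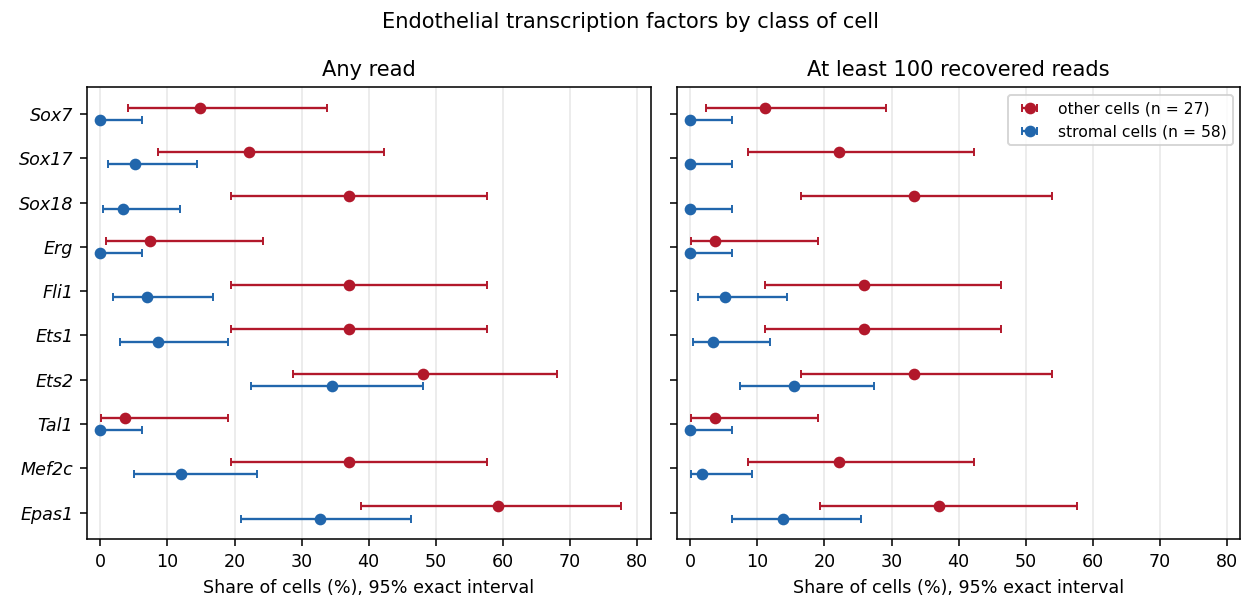
Share of cells (%) with any read (left) and with at least 100 recovered reads (right) of each factor in the 27 other cells (red) and the 58 stromal cells (blue), with exact 95% intervals. At 100 reads the red points lie to the right of the blue ones for all 10 factors, and the blue points of the 3 SOXF genes, *Erg* and *Tal1* lie at 0.

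Among the SOXF genes, *Sox18*, which is mutated in a syndrome of hair, lymphatic and vessel defects, had the largest difference of the 10 factors in the share of cells above 0. That rank was not kept under every alternative setting given below. *Sox18* was above 0 in 10 of 27 other cells (37%, exact 95% interval 19.4% to 57.6%) and in 2 of 58 stromal cells (3.45%, interval 0.420% to 11.9%). The other cells above 0 ranged from 4 to 9787 reads with a median of 4032.5, and the 2 stromal cells held 3 and 4 reads. Apart from 1 other cell with 4 reads, the classes did not overlap among the cells above 0. The highest values were in cells 22, 56 and 55, with 9787, 9743 and 7759 reads. The mean of log2(deposited value + 1) was 4.18 ± 5.94 (SD, n = 27 cells) in the other cells and 0.11 ± 0.73 (n = 58 cells) in the stromal cells. The SD in the other cells is larger than the mean because 17 of them were at 0. One of the stromal cells with reads of *Sox18* was cell 50, where 4 reads stood as a deposited value of 44.

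*Sox17*, a factor of arterial endothelium, was above 0 in 6 of 27 other cells (22.2%, interval 8.62% to 42.3%) and in 3 of 58 stromal cells (5.17%, interval 1.08% to 14.4%). All 6 other cells held at least 1036 reads, with a median of 1872 and a highest value of 5236 in cell 14. The 3 stromal cells held 2, 2 and 3 reads, so that among the cells above 0 the classes did not overlap. *Sox7*, which takes part in vessel growth together with its relatives, was above 0 in 4 other cells (14.8%, interval 4.19% to 33.7%), with 42, 1493, 3573 and 4094 reads. It was above 0 in 0 of 58 stromal cells (interval 0% to 6.16%), and a limit of 3 cells corresponds to 5.17% of cells with reads.

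Reads of at least 1 SOXF gene at 100 or more were found in 14 of 27 other cells (51.9%, interval 31.9% to 71.3%) and in 0 of 58 stromal cells (interval 0% to 6.16%). Each SOXF gene was found in few cells, with *Sox7*, *Sox17* and *Sox18* at 100 reads in 3, 6 and 9 other cells. Of those 14 cells, 10 held a single SOXF gene at this level, 4 held a pair and 0 held all 3. *Sox17* and *Sox18* were together in 3 of these cells, *Sox7* and *Sox17* in 1 and *Sox7* and *Sox18* in 0. Phi, a correlation of being found over the 27 other cells, was 0.19, 0.09 and -0.25 for these pairs. With any read counted the pairs were together in 4, 2 and 1 cells, with phi of 0.33, 0.28 and -0.10. Cell 80 then held all 3, with 42 reads of *Sox7*, 2470 of *Sox17* and 4 of *Sox18*. The 14 cells with a SOXF gene held a median of 6.5 endothelial markers at 100 reads and the 13 without held a median of 5. The ranges, from 2 to 9 and from 0 to 8 markers, overlapped.

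Among the ETS factors, *Fli1* was above 0 in 10 of 27 other cells (37%, interval 19.4% to 57.6%) and in 4 of 58 stromal cells (6.90%, interval 1.91% to 16.7%). Its reads in those other cells ranged from 1 to 2875 with a median of 1211. The stromal cells above 0 held 3, 152, 277 and 706 reads. The classes overlapped, but the 5 highest values, from 1869 to 2875 reads, were all in other cells. The mean of log2(deposited value + 1) was 3.10 ± 4.79 in the other cells and 0.47 ± 1.89 in the stromal cells. *Erg*, its closest relative, was above 0 in 2 other cells (7.41%, interval 0.910% to 24.3%), with 735 reads in cell 48 and 32 reads in cell 62, and in 0 of 58 stromal cells (interval 0% to 6.16%), with the same limit of 5.17%. At this depth an *Erg* transcript could be missed in a cell that holds it, and the share is of cells with reads.

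*Ets1*, a factor of migrating and sprouting endothelium and of lymphocytes, was above 0 in 10 of 27 other cells (37%, interval 19.4% to 57.6%) and in 5 of 58 stromal cells (8.62%, interval 2.86% to 19%). The other cells above 0 held between 20 and 1666 reads with a median of 258, and the stromal cells above 0 held between 3 and 376 reads with a median of 7. The 4 highest values were in other cells, and the highest stromal value followed them. *Ets2*, which is widely expressed and responds to growth factor signaling, had the smallest difference in the share of cells above 0 of the 8 factors tested, 13.7 points, although at 100 reads the smallest was that of *Sox7*. It was above 0 in 13 of 27 other cells (48.1%, interval 28.7% to 68.1%) and in 20 of 58 stromal cells (34.5%, interval 22.5% to 48.1%), and the intervals overlapped. Its reads ranged from 3 to 9186 with a median of 2827 in those other cells and from 2 to 9745 with a median of 6.5 in those stromal cells. The highest single value, 9745 reads in cell 52, was thus in a stromal cell, but 11 of the 20 stromal cells held fewer than 10 reads. At 100 reads or more, *Ets2* was in 9 other cells (33.3%, interval 16.5% to 54%) and in 9 stromal cells (15.5%, interval 7.35% to 27.4%). One of the latter was cell 50, in which 7629 recovered reads stood as a deposited value of 120, and without it 8 of 57 stromal cells remained.

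*Tal1* was above 0 in 1 of the 85 cells. This was cell 3, an other cell, with 914 reads. In the stromal cells 0 of 58 held reads (interval 0% to 6.16%; limit of 3 cells, 5.17%). Of the 8 listed partners of Tal1 in its complexes, 6 had a row and were tested. With the other cells higher by at least 20 points 0 of them were called, beside 1.11% of all genes tested. With the stromal cells higher 1 was called, beside 25.4% of all genes. This was *Lmo2*, the LIM-only bridging protein of the Tal1 complex, which was above 0 in 3 other cells and 20 stromal cells. *Gata2*, another partner, was above 0 in 4 other cells and 0 stromal cells, and *Tcf4*, which encodes an E protein, in 21 other cells and 39 stromal cells. Both were below the call and were picked after their values were seen.

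*Mef2c* was above 0 in 10 of 27 other cells (37%, interval 19.4% to 57.6%) and in 7 of 58 stromal cells (12.1%, interval 4.99% to 23.3%). Its reads ranged from 1 to 4343 with a median of 132.5 in those other cells and from 3 to 177 with a median of 4 in those stromal cells. Cells 62 and 58, with 4343 and 2348 reads, stood above the rest, and the remaining values of both classes overlapped. At 100 reads or more it was in 6 other cells and 1 stromal cell. *Epas1* was the factor found in the most cells with any read counted, whereas at 100 reads it was level with *Ets2*, at 18 cells each. It was above 0 in 16 of 27 other cells (59.3%, interval 38.8% to 77.6%) and in 19 of 58 stromal cells (32.8%, interval 21% to 46.3%). Its reads ranged from 3 to 6455 with a median of 681 in those other cells and from 2 to 3577 with a median of 44 in those stromal cells. The 4 highest values were in other cells and the classes overlapped below them. At 100 reads or more it was in 10 other cells (37%, interval 19.4% to 57.6%) and 8 stromal cells (13.8%, interval 6.15% to 25.4%). Its mean of log2(deposited value + 1) was 4.86 ± 5.0 in the other cells and 1.77 ± 3.33 in the stromal cells.

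Between genes, levels were compared as the mean RPM per kilobase of exon over the other cells. *Sox18* had the highest mean, 386 ± 667 (SD, n = 27 cells), followed by *Ets2* with 163 ± 267. *Epas1*, *Fli1*, *Sox17* and *Sox7* followed with means of 72.9, 60.1, 50.6 and 44.6, and *Ets1* and *Mef2c* with 16.9 and 13.9. *Erg* and *Tal1* were lowest, with means of 2.86 and 2.71. The SD over cells exceeded the mean for each factor. Most other cells were at 0 for each factor but *Epas1*, which was above 0 in 16 of 27. No neighbours in this order could be separated by the spread, and the order is a description. On the same scale the stromal means were 53.9 ± 250 for *Ets2* (24.8 ± 118 without cell 50), 8.42 ± 25.9 for *Epas1*, 2.03 ± 9.73 for *Fli1* and below 1 for each of the other 7.

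Counted by cell, the other cells held a median of 3 factors above 0 (range, 0 to 6) and the stromal cells a median of 1 (range, 0 to 4). At 100 reads or more the medians were 2 (range, 0 to 4) and 0 (range, 0 to 4). At least 1 factor reached 100 reads in 23 of 27 other cells and in 18 of 58 stromal cells, and at least 3 did so in 11 other cells and 1 stromal cell. Among those 11, cell 14 held *Sox17*, *Sox18*, *Fli1* and *Epas1*, cell 48 held *Sox18*, *Erg*, *Ets1* and *Ets2*, and cell 65 held *Fli1*, *Ets1*, *Ets2* and *Epas1*. The sets differed between these 3 cells. The stromal cell was cell 34, with 706 reads of *Fli1*, 376 of *Ets1*, 1821 of *Ets2* and 177 of *Mef2c*. It held 6 endothelial and 7 stromal markers at 100 reads and was the only cell with at least 3 endothelial and 4 stromal markers at that level. Without it the stromal cells at 100 reads numbered 2 of 57 for *Fli1*, 1 for *Ets1*, 8 for *Ets2* and 0 for *Mef2c*, compared with 3, 2, 9 and 1 of 58 with it. *Epas1* remained at 8 cells.

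**Figure D3:**
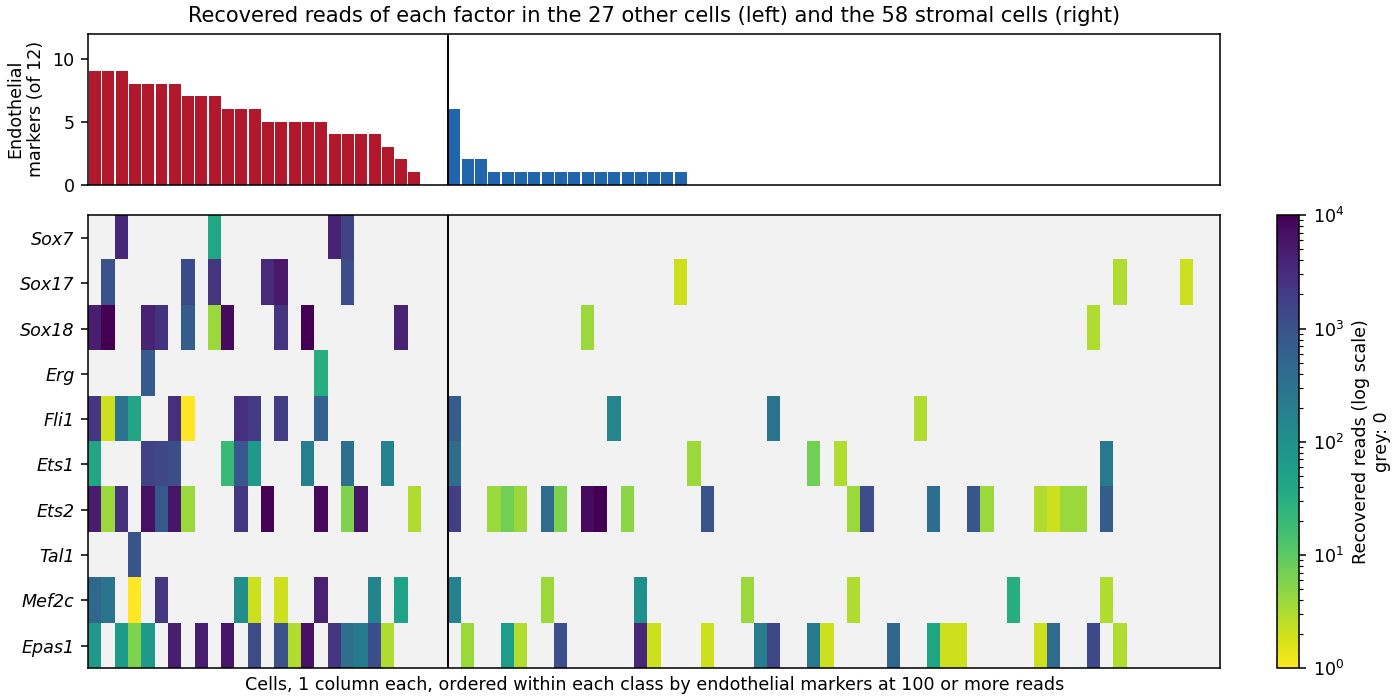
Recovered reads (colour, log scale; grey, 0) of the 10 factors in each of the 27 other cells and 58 stromal cells, 1 column per cell, below the number of the 12 endothelial markers at 100 or more reads in that cell. Values of 100 reads or more are spread over the other cells in differing sets, while in the stromal cells they are mostly of *Ets2* and *Epas1*.

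Within the other cells, factors were found mainly where endothelial markers were found. At least 1 factor reached 100 reads in 22 of the 23 other cells with 3 or more endothelial markers and in 1 of the 4 with fewer. That 1 was cell 83, with 3948 reads of *Sox18*. Of the remaining 3, cell 13 held 3 reads of *Ets2*, and cells 67 and 89 held no read of any factor. These 3 cells held 377, 285 and 405 genes above 0, the fewest of all 85 cells, and the part of this in their lack of markers and factors was not tested. Over the 27 other cells, these 3 among them, the number of factors at 100 reads followed the number of endothelial markers with r = 0.60 and rho = 0.54. With the genes above 0 per cell it gave r = 0.42 and rho = 0.26, and with the recovered reads r = -0.22 and rho = -0.26. These values describe cells of 1 sample, which share the same preparation. The part of the number of genes, and of those 3 cells, in the first relation was not tested. In the stromal cells with fewer than 3 endothelial markers, 17 of 57 held a factor at 100 reads. Over all 58 stromal cells, cell 34 among them, the number of factors and the number of markers gave r = 0.53 and rho = 0.12.

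**Figure D4:**
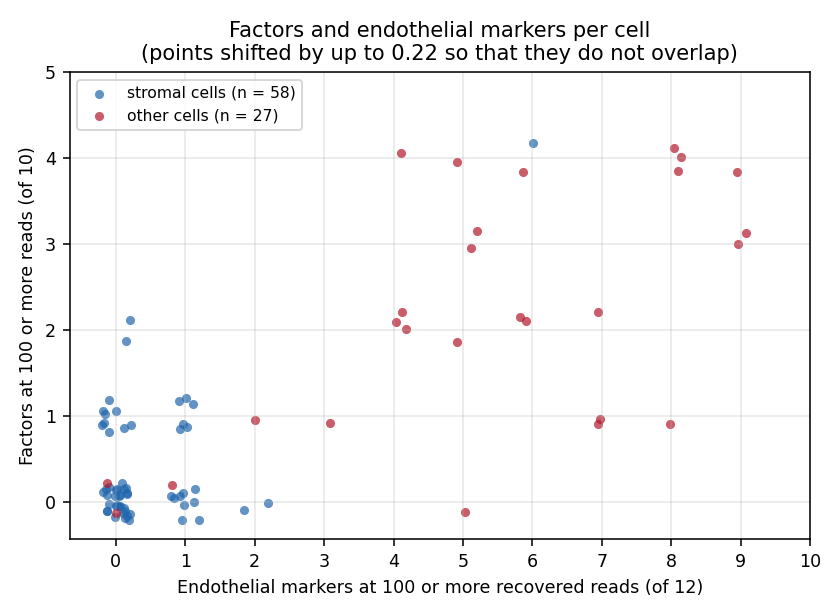
Number of the 10 factors at 100 or more recovered reads against the number of the 12 endothelial markers at that level, 1 point per cell, in the 27 other cells (red) and 58 stromal cells (blue). The red points reach 4 factors and 9 markers, and the single blue point at 6 markers and 4 factors is cell 34.

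Pairs of factors were then counted in the 27 other cells. Of the 45 pairs, 36 were found together in at least 1 other cell with any read counted, and 29 at 100 reads. *Fli1* and *Ets2* were the pair found together most often at 100 reads, in 5 cells (phi, 0.48). With any read counted the most frequent pair was *Ets1* and *Epas1*, in 8 cells (phi, 0.32). The highest phi was then that of *Fli1* and *Mef2c*, 0.52, in 7 cells. At 100 reads *Ets1* and *Ets2* were together in 4 cells, and so were *Ets2* and *Mef2c*, with phi of 0.30 and 0.38. The chromosomal neighbours *Fli1* and *Ets1*, which have 0 protein-coding genes between them on chromosome 9, were together in 2 cells (phi, 0.04). Both cells with reads of *Erg* also held its neighbour *Ets2*, with 6590 and 7890 reads. At 100 reads *Epas1* was together with *Ets2* in 2 cells (phi, -0.22) and with *Mef2c* in 1 (phi, -0.23). At least 1 of *Mef2c* and *Epas1* was in 15 cells at that level. With any read counted *Epas1* was together with *Ets2* in 6 cells (phi, -0.26) and with *Mef2c* in 5 (phi, -0.14). An ETS member at 100 reads was found in 14 of 27 other cells (51.9%, interval 31.9% to 71.3%) and 11 of 58 stromal cells (19%, interval 9.87% to 31.4%). Phi is a correlation of being found, over 27 cells of 1 sample, and is given as a description.

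**Figure D5:**
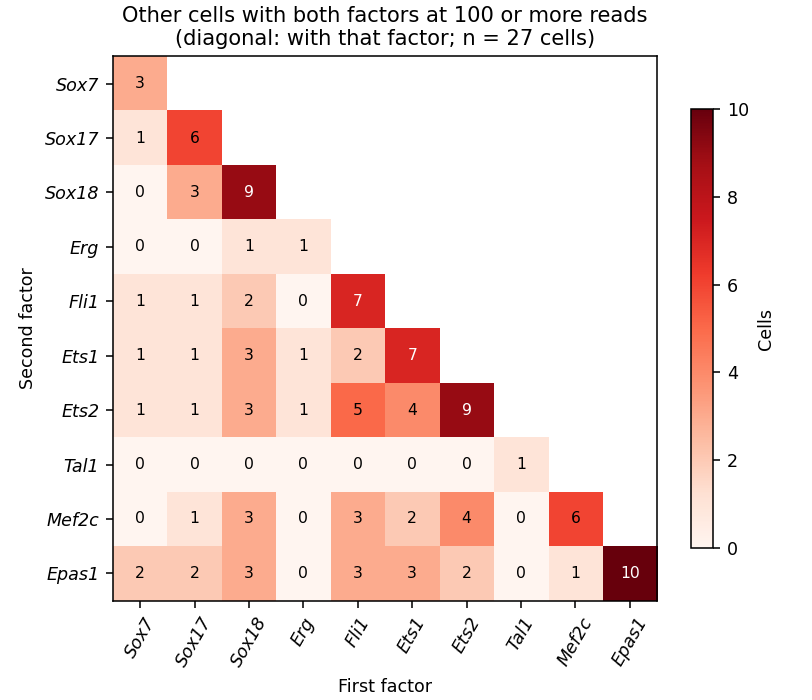
Number of the 27 other cells with both factors of a pair at 100 or more recovered reads (colour and figures), with the cells of each single factor on the diagonal. The highest count off the diagonal is 5, for *Fli1* and *Ets2*, and *Sox7* and *Sox18* share 0 cells.

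For the 6 factors above 0 in at least 10 cells, the genes found in the most similar cells were sought among the 6127 genes above 0 in at least 10 of the 85 cells. The nearest was *Rasip1* for *Sox18* (phi, 0.48), *Rbp7* for *Fli1* (0.49), *Itga1* for *Ets1* (0.52) and *Lpar6* for *Mef2c* (0.51). It was *Akap13* for *Ets2* (0.40) and *Rgcc* for *Epas1* (0.38). *Cd93* and *Arhgap31* came next for both *Sox18* and *Fli1*. For *Ets1* these ranks were taken by *Gm11407* and *Adgrg1*, for *Ets2* by *Zbtb10* and *Tinagl1*, for *Mef2c* by *Rasip1* and *Rbp7*, and for *Epas1* by *Gm37728* and *Vamp5*. All these phi values span both classes of cells, which differ in the number of genes found.

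Of 24 other endothelial transcription factors listed, 18 had a row and 16 were tested. Of these, 3 were called with the other cells higher, beside 1.11% of all genes tested, namely *Tcf15*, a partner of Meox2 in heart endothelium, *Id1*, an inhibitor of helix-loop-helix factors induced by BMP, and *Mecom*, a zinc finger factor. They were above 0 in 15, 18 and 10 other cells and in 3, 19 and 4 stromal cells. In the opposite direction 4 were called, a share near the 25.4% of all genes tested. Among these *Foxo1*, a forkhead factor restrained by Akt, was above 0 in 6 other cells and 42 stromal cells, and *Klf4*, a shear-responsive Krüppel-like factor, in 13 and 52. *Lmo2*, described above, and *Foxc1*, in 0 and 13 cells, were the others, the last named although it was not among the 3 largest differences. The median difference of the 16 was 9.96 points, beside -9.32 over all genes tested.

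Of 26 endothelial genes listed for ETS or SOX sites known in their control regions, all 26 had a row and 22 were tested. The number called with the other cells higher was 14 (12 at 100 reads), and with the stromal cells higher 0, beside 1.11% and 25.4% of all genes tested. Their median difference was 28.7 points, beside -9.32 over all genes tested. *Cdh5* was above 0 in 23 other cells and 7 stromal cells. *Egfl7*, which encodes a secreted endothelial protein, was above 0 in 21 and 7 cells, and *Flt1*, which encodes VEGF receptor 1, in 21 and 10. Among the 14 other cells with an ETS member at 100 reads *Cdh5* reached 100 reads in 11, and among the 13 without in 9. *Flt1* reached it in 11 and 8. With and without a SOXF gene at 100 reads, the numbers were 11 of 14 and 9 of 13 for *Cdh5*, and 12 and 7 for *Flt1*. The list holds all 12 endothelial markers, of which 10 were called with the other cells higher, and is therefore not independent of them.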

How the data were processed

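Single-cell RNA-seq of 94 PV-ADSCs was described, 1 library per cell, and 85 cells had a column in the table. What the authors deposited is 1 table of normalized read counts, a signal that is not raw counts. The submitters' processing notes name HISAT2 2.0.5, SAMtools 1.4, StringTie 1.3.3 and mm9, and the study used scater for quality control and default scaling. The program that counted reads is not given in the sources used here, which lack the study's supplementary methods. The methods in its main text describe no scaling by groups of genes. The means of log2(value + 1) use these values without further scaling.

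In 13 groups of genes the values were whole reads times a factor of the cell, between 0.0157 and 94.5. Each value was divided by its factor, which left 3 of 200972 values not whole. In these groups the tolerance was 2e-09 of the reads, or 1e-08 reads plus 1e-09 divided by the factor, whichever was larger. Genes were taken as unscaled where every value was whole to within 6e-09 of the value or 1e-06, whichever was larger. For 20 of 1105 pairs of cell and group fewer than 10 values fix the factor, which is less certain. *Sox7*, *Sox17*, *Erg* and *Tal1* were unscaled. The recovery and the calls were tried on simulated data. The recovery was tried on reads recovered here, permuted over cells and multiplied by new factors, so the scaling model itself was assumed. The calls were tried on genes raised by more than any factor differed, with equal shares in both classes for the rest. This trial therefore cannot speak for differences of the size seen here or for classes that differ in genes per cell. Detection was a value above 0, or at least 100 recovered reads, and a gene was called at a difference of 20 percentage points. Shares carry exact Clopper-Pearson intervals at 95%, and a limit of 3 cells is given beside a count of 0, which is lower than the end of the exact interval. Both cover counting error only, not animals, and reads of a full-length library without molecular identifiers are not independent molecules. No test was made, as all cells are 1 sample. No doublet caller was run on these sorted wells.

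The factors and gene lists were chosen with earlier results of these data known. From each list up to 3 genes per direction were named among those differing by at least 20 points, and for each factor above 0 in at least 10 cells the 3 genes of highest phi. The alternatives were other limits for *Dcn*, detection, the size of the difference and the filter on genes, cells thinned or left out, and other pseudocounts. Exon lengths came from GENCODE vM21, of another build than mm9, and promoter windows from RefSeq (GRCm38.p6). Python 3.11.15, numpy 2.4.6, pandas 2.3.3, scipy 1.17.1 and matplotlib 3.10.9 were used.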

Additional observations from a re-analysis of the deposited data

How the results depend on the processing

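The 5 factors called with the other cells higher became 8 with a difference of 10 points, 2 with 30 points and 8 with a difference of 1 in the mean of log2(value + 1). With a *Dcn* limit of 10, which left 4 other cells, 3 were called with the other cells higher and 1 instead of 0 with the stromal cells higher, and the differences turned to -18.5 points for *Ets1* and -43.2 points for *Epas1*. A limit of *Dcn* above 0 gave no value, because it left no other cell. Over the 10 settings that can change a share, 96 of 100 differences had the other cells higher, and the 4 others were found with the *Dcn* limit of 10. *Sox18* did not keep the largest difference throughout. With cells thinned *Fli1* stood at 31.9 points and *Sox18* at 29.9. With a *Dcn* limit of 100 they stood at 27.7 and 25.3 points. The median number of factors in the stromal cells fell from 1 to 0 when 10 or 100 reads were required. The settings without cell 50, without other cells of fewer than 3 endothelial markers, and with pairs counted at 100 reads were chosen after seeing the data. No paired analysis was possible because all cells form a single group. With 27 and 58 cells, differences of a few cells lie within the intervals, and a factor at 0 reads in a cell may have been missed.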

Other observations

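Other members of the same families were counted in the same way. Over all genes tested, 1.11% were called with the other cells higher and 25.4% with the stromal cells higher, and the median difference was -9.32 points. Few genes were tested in each family below, so their counts are too small to be set closely against these shares. Of 16 other SOX genes listed, 7 had a row and 5 were tested, and 0 were called in either direction, with a median difference of -12.1 points. Each of the 5 was above 0 in too few cells to be called with the stromal cells higher. *Sox4*, *Sox5* and *Sox9*, the last a factor of cartilage, were above 0 in 11, 9 and 7 of 58 stromal cells and in 0 of 27 other cells, where a limit of 3 cells corresponds to 11.1% of cells with reads. These 3 were picked after their values were seen. *Sox13* went the other way, above 0 in 4 other cells (14.8%) and 3 stromal cells (5.17%). Of 22 other ETS genes listed, 13 had a row and 10 were tested, and 0 were called, with a median of -7.76 points. *Elk3*, a ternary complex factor picked after its values were seen, was above 0 in 9 other cells (33.3%) and 20 stromal cells (34.5%). At 100 reads it was in 7 of 27 and 7 of 58 cells, a difference of 13.9 points with the other cells higher.

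Of 3 other MEF2 genes listed, 2 were tested, and *Mef2a* was called with the stromal cells higher, above 0 in 25 of them and in 5 other cells. At 100 reads its difference was -16.0 points and the call was lost. Of 8 genes listed for the HIF family and its oxygen-dependent control, 5 were tested, and 1 was called with the stromal cells higher. This was *Hif1a*, which encodes HIF-1α and was above 0 in 21 stromal cells and 2 other cells, the opposite direction to *Epas1*. At 100 reads, in 13 and 1 cells, the difference was -18.7 points and this call was lost as well.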
